A study of Mus musculus with 3 samples.

Results

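The histone cluster genes are the genes of the linker histone H1 and the core histones H2A, H2B, H3 and H4 whose mouse symbols start with Hist1h, Hist2h, Hist3h or Hist4h. All rows of the count table with such a symbol were taken, which gave 66 of 18478 genes. They were followed in Müller glia, the main glial cells of the retina, that had been sorted from adult mice as tdTomato-positive cells. Every library carried 1 genotype, Glast-CreERT+/tg with Yap5SA+/tg and the reporter ROSA26R-tdTomato+/tg, in which tamoxifen switches on an active form of the Hippo pathway effector YAP and a red reporter in Glast-expressing cells. All mice had received the excitotoxin N-methyl-D-aspartate (NMDA), and cells were taken 2 days later. The 3 libraries, called runs, therefore form 1 group with no untreated, NMDA-only or Yap5SA-free control among the samples used here, and the comparisons below are between cells of the same library. The labels do not say whether the runs came from separate animals. The p-values rest on how much the differences between classes vary from run to run, and that variation may be technical. Because Glast drives the Cre, a cell other than a Müller glial cell that expresses Glast, such as an astrocyte, can also carry the reporter.

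Most histone mRNAs of the cycling cell are made during DNA replication and end in a short stem-loop in place of a poly(A) tail. The stem-loop is bound by SLBP, and the mRNAs are destroyed when replication ends. A smaller number of histone genes can also make longer transcripts that run past the stem-loop to a polyadenylation signal, and these persist in cells that have stopped dividing. The libraries were made from polyadenylated RNA by 3' end capture, so an mRNA that ends at the stem-loop is captured poorly, and levels of different members are not a measure of how much of each histone is made. The members were therefore parted into a list of 7 genes known for polyadenylated transcripts (Hist1h1c, Hist1h2bc, Hist1h2be, Hist2h2be, Hist3h2a, Hist3h2ba and Hist4h4), a testis list with 2 genes in the table (Hist1h2aa and Hist1h1t), and 57 members counted as replication-linked by class.

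The stem-loop is shown first because it marks where the transcripts of this family part ways. The 16-base histone stem-loop was searched on the sense strand of the GENCODE M21 transcripts (GRCm38). A match was found in 46 of the 65 members matched in that annotation (70.8%) and in 0.32% of the 21877 protein-coding genes. The member Hist2h2bb.1 was not matched. In the sequences below, written 5' to 3' on the gene's strand, capitals mark the stem, and lower case marks the loop and up to 5 flanking bases.

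Hist1h2ap: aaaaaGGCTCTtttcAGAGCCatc

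Hist1h2ae: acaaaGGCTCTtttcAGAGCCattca

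Hist1h1e: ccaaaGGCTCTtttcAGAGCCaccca

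Hist1h4i: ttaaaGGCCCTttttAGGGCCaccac

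Hist1h1c: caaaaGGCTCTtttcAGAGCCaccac

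Hist3h2ba: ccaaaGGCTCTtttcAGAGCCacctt

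Hist4h4: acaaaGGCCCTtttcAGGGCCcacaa

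All 7 lie in the only exon of a transcript, past its coding part. The site of Hist1h2ap is chr13:21833026-21833049 on the minus strand, and its annotated transcript stops 3 bases after the stem. The sites of Hist1h2ae (chr13:23570663-23570688, minus strand), Hist1h1e (chr13:23621777-23621802, minus strand) and Hist1h4i (chr13:22040961-22040986, minus strand) are followed by 151, 1153 and 330 further annotated bases. The sites of Hist1h1c (chr13:23739507-23739532, plus strand), Hist3h2ba (chr11:58949344-58949369, plus strand) and Hist4h4 (chr6:136803993-136804018, minus strand) are followed by 840, 169 and 2445 bases. A member was said to have an extended end when at least 100 annotated bases followed the stem-loop or when AATAAA or ATTAAA stood in its last 50 bases. This held for 27 members, 16 of them with such a signal. The other 38 matched members were called short, also where the annotated transcript had no stem-loop, as in Hist1h1b, Hist1h1a and Hist1h2al. For those the label does not tell how far the transcript runs past a stem-loop, and it may depend on how complete the annotation is. The family is also close in sequence: in 37 members over 50% of the 50-base windows in the last 500 transcript bases occur in another gene, and Hist1h2ap, at 93.1%, and Hist1h1e, at 99.1%, are among them. Hist1h1e overlaps Hist1h2be and Gm11398 on the same strand. It ends at chr13:23620629 and Hist1h2be reaches to 23621124, so nearly all of its last 500 bases lie in the span of Hist1h2be. Its 99.1% is therefore no measure of likeness to another copy. How shared reads were assigned is not given in the sources used here, so the share of a single gene among such copies or overlapping genes is uncertain. Hist1h2bc (1.77%), Hist1h1b (0%), Hist1h1c (0%) and Hist3h2a (0%) share little or nothing.

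Cells were classed by 8 genes that are no members. S genes were Mcm5, Mcm6, Ung and Hells, and G2/M genes were Top2a, Mki67, Ccnb1 and Cdc20. By the rule of at least 2 UMIs (unique molecular identifiers, each counting 1 captured mRNA), 5518 cells were S cells and 5327 were G2/M cells, but 4655 cells met both rules, which is 84.4% of the former and 87.4% of the latter. These cells were therefore set apart as cells of both sets. Of the 24672 cells kept, 14866 had 0 UMIs of all 8 genes, 863 were S only, 672 were G2/M only and 3616 were between the rules. Levels are given as CPM, the UMIs of a gene per 1000000 UMIs summed over the cells of a class in a run, and n is the 3 runs.

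Runs held 94844636 to 122871274 UMIs, and pairs of runs shared 83 to 108 cell barcodes. Median UMIs per cell were 8414 to 9898 in cells with none of the 8 genes, 14337.5 to 15868.5 in S only, 22262.5 to 24732 in cells of both sets and 9485.5 to 11172 in G2/M only, so UMIs per cell are given where depth matters. All 12 Müller glia markers were detected in every class, and their summed level was 28300 ± 2052 CPM (SD, n = 3) in cells with none, 13520 ± 2023 in S only, 10110 ± 731 in cells of both sets and 14360 ± 2823 in G2/M only. The 9 microglial markers summed to 37.7 to 71.1 CPM in cells with none, 27.7 to 568 in S only, highest in run 1, 108 to 209 in G2/M only and 52.5 to 253 in cells of both sets. The 5 astrocyte markers, some of which Müller glia also express, summed to 1557 to 2186 CPM in cells with none and 107 to 216 in cells of both sets, and the 8 rod markers to 1411 to 1736 and 558 to 703. The part of the astrocyte and rod transcripts in the differences between these classes was not tested. Results are therefore also given without cells holding Pax2 or at least 3 microglial UMIs, where that changed a call. Testis germ cell markers were at or under 0.789 CPM in every class and run. Run 2 was almost all of 1 sex by its transcripts, with Xist in 98.7% of cells and a Y-linked gene in 0.0341%, while runs 1 and 3 held both.

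The members held 256156 UMIs in all, and 3 of them held 73.5%: Hist1h2bc, an H2B gene, with 122619 in the kept cells, Hist3h2ba, another H2B gene, with 33685, and Hist3h2a, an H2A gene beside it on chromosome 11, with 31997. Of the 66, 17 members had at least 1000 UMIs, 28 had fewer but at least 100, 21 had under 100 and 0 had none. The 7 genes of the polyadenylated list together stood at 983 ± 170 CPM (SD, n = 3) in cells outside the cycle, against 120.0 ± 28.5 for the 57 replication-linked members. In cells of both sets the order was turned, with 197 ± 10.0 CPM for the polyadenylated list and 252 ± 28.8 for the replication-linked members. The 3 runs of each class did not overlap in either sum between these 2 classes.

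**Figure D1:**
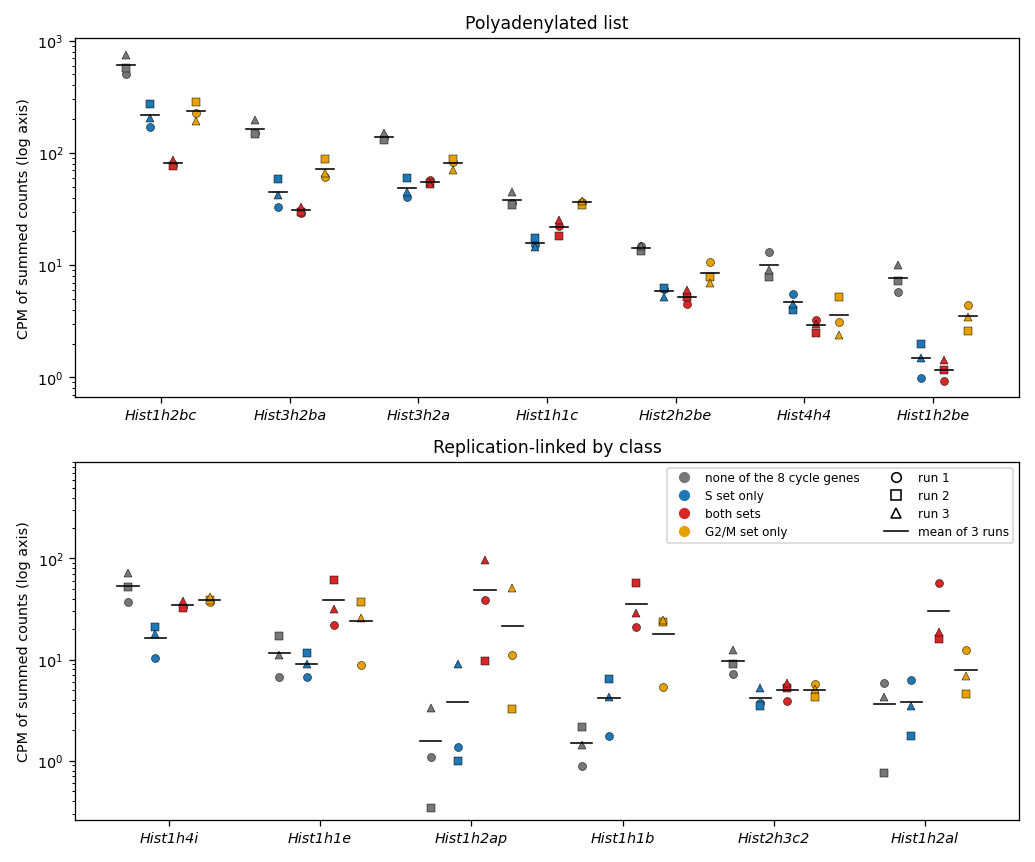
CPM of the 13 members described run by run (log axis), in cells with none of the 8 cycle genes, S only, both sets and G2/M only; symbols are runs and bars are means of 3 runs. The genes of the polyadenylated list stand highest in cells with none, and Hist1h2ap, Hist1h1b, Hist1h1e and Hist1h2al stand highest in cells of both sets.

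All 7 polyadenylated members were lower as a share of UMIs in S only and in cells of both sets than in cells with none, and 6 of them were lower in G2/M only, where Hist1h1c did not pass the test. Hist1h2bc stood at 504, 571 and 751 CPM in runs 1, 2 and 3 in cells with none, at 172, 272 and 207 in S only, at 229, 287 and 191 in G2/M only, and at 78.8, 76.6 and 86.1 in cells of both sets. The runs of cells with none lay above those of every other class, and the runs of cells of both sets lay below them. Per cell, its mean fell from 5.82 UMIs with none to 1.88 with both sets, although cells of both sets were the deepest. Its log2 difference from cells with none was -1.46 ± 0.15 (SE; edgeR adjusted p = 1.41e-06) in S only, -1.43 ± 0.15 (edgeR adjusted p = 3.15e-06) in G2/M only and -2.89 ± 0.15 (edgeR adjusted p = 4.17e-10) in cells of both sets. The last of these comparisons was added after seeing how many cells met both rules.

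Hist3h2ba stood at 147 to 198 CPM in cells with none and at 29.4 to 32.9 in cells of both sets, a log2 difference of -2.40 ± 0.13. Its neighbour Hist3h2a stood at 130.0 to 150.4 and at 52.9 to 57.9 CPM in the same classes, a log2 difference of -1.33 ± 0.10. For both genes S only (32.8 to 58.8 and 40.6 to 59.8 CPM) lay below cells with none in every run. Counted per cell, Hist3h2a was 1.34 UMIs with none and 1.28 with both sets, so its fall is one of share, not of UMIs per cell.

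Hist1h1c, a linker histone gene, stood at 35.8, 34.4 and 44.6 CPM in cells with none, at 15.2, 17.5 and 14.5 in S only and at 36.5, 34.6 and 37.4 in G2/M only. It was lower in S only, by -1.24 ± 0.12 on the log2 scale (edgeR adjusted p = 7.81e-07), and its runs in G2/M only lay within those of cells with none (-0.14 ± 0.11, edgeR adjusted p = 0.327). Without cells holding Pax2 or microglial UMIs, the latter difference was -0.37 and passed the test. The share of cells with a Hist1h1c UMI was 23.0% with none and 31.2% in the deeper cells of both sets, and 10.9% and 7.02% once cells were thinned to 3500 UMIs. The lower members of the list moved the same way in cells of both sets: Hist2h2be by -1.43 ± 0.11, Hist4h4 by -1.75 ± 0.14 and Hist1h2be by -2.67 ± 0.16. Hist1h2be had a mean of 7.63 CPM in cells with none and 1.17 in cells of both sets.

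The replication-linked members did not move as 1 group. Hist1h2ap, an H2A gene, stood at 1.08, 0.342 and 3.32 CPM in runs 1, 2 and 3 in cells with none, at 1.38, 1.00 and 8.98 in S only, at 11.1, 3.27 and 50.8 in G2/M only, and at 38.6, 9.73 and 96.7 in cells of both sets. In every run its level rose from cells with none to S only, to G2/M only and to both sets. The step to S only is small in run 1. A UMI of Hist1h2ap was found in 1.45%, 1.63% and 7.33% of the 344, 246 and 273 S only cells, so that step rests on few UMIs in runs 1 and 2. The level of Hist1h2ap in run 3 was so far above that in run 2 that the classes overlap between runs. Its log2 difference from cells with none was 4.99 ± 0.15 in cells of both sets (edgeR adjusted p = 1.57e-12), and its mean per cell was 0.0145 UMIs with none and 1.10 with both sets.

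Hist1h1b, a linker histone gene, stood at 0.896, 2.15 and 1.43 CPM in cells with none and at 21.1, 57.2 and 28.6 in cells of both sets. These classes did not overlap, and the log2 difference was 4.58 ± 0.18 (edgeR adjusted p = 1.75e-11). Hist1h1e, another linker histone gene, stood at 6.68, 17.2 and 11.0 CPM with none and at 22.1, 61.6 and 31.7 with both sets, a log2 difference of 1.71 ± 0.11. Hist1h2al, an H2A gene, stood at 5.90, 0.760 and 4.30 CPM with none and at 56.6, 16.1 and 18.9 with both sets, a log2 difference of 3.11 ± 0.24. The fold of Hist1h3c, an H3 gene, was the highest among the members tested (log2 5.86 ± 0.49), on 190 UMIs in all and a mean of 1.51 CPM in cells of both sets.

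Other members of the same class fell as a share of UMIs. Hist1h4i, an H4 gene with the highest level of the class, stood at 37.3, 52.6 and 71.2 CPM in cells with none and at 33.2, 32.5 and 37.6 in cells of both sets, a log2 difference of -0.59 ± 0.13 (edgeR adjusted p = 0.000778). In UMIs per cell it was 0.514 with none and 0.805 with both sets. Hist2h3c2, an H3 gene, was lower by -0.90 ± 0.11 and Hist2h4, an H4 gene, by -1.95 ± 0.14 on the log2 scale. All 3 have an extended annotated end.

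Counted over the members, 43 of the 66 passed the filter on low counts, and a member could pass through the class where it is high, so the counts describe these genes and support nothing further. In cells of both sets 21 members were higher and 14 lower, where 38.8% of the 14003 genes tested were higher and 41.1% lower. All 7 of the polyadenylated list were lower. Of the 36 replication-linked members tested, 21 were higher, 7 were lower and 8 did not pass. With no filter on low counts, 28 members were higher and 16 lower, and after thinning every cell to 3500 UMIs 7 were higher and 10 lower. The shares over all genes in these settings are not given here. The median log2 difference was -1.75 in the polyadenylated list, 1.15 in the replication-linked members tested and -0.04 over all genes tested.

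The replication-linked members were also counted by annotated end, a split chosen after the values were seen. Over all genes tested, 38.8% were higher and 41.1% lower. Of the 21 tested with a short end, 15 were higher and 2 lower, with a median of 2.18. Of the 14 tested with an extended end, 5 were higher and 5 lower, near the shares over all genes, with a median of -0.18. The short-ended members that were lower were Hist2h2aa1 and Hist2h2aa2, near-identical H2A copies that share reads. The extended-end members that were higher were Hist1h2ae, Hist1h1d, Hist1h1e, Hist1h2ac and Hist1h4d. Hist1h2bc fell most of all members tested. It is called short because its annotated transcript, of 1156 bases, has neither a stem-loop match nor a signal in its last 50 bases, not because it ends near a stem-loop.

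**Figure D2:**
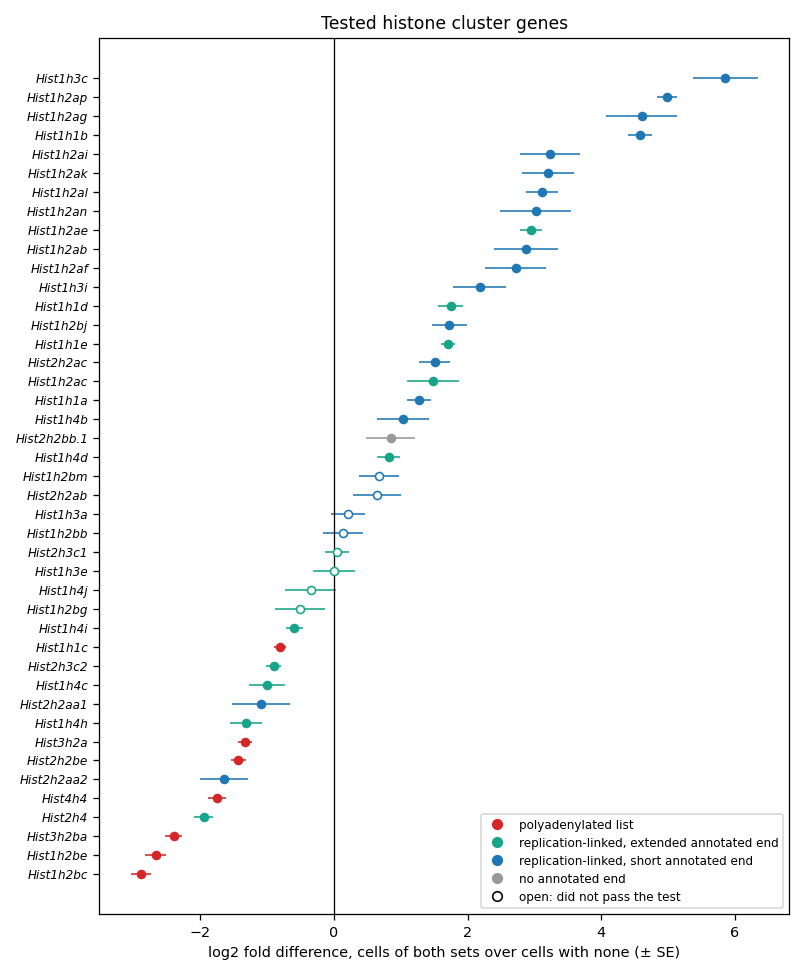
Log2 fold difference (± SE) of the 43 tested members between cells of both sets and cells with none, coloured by list and annotated end; open symbols did not pass the test. The 7 polyadenylated genes lie between -2.89 and -0.80, and members with a short end reach 5.86.

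By histone type, the same comparison gave unequal counts, to be read against the 38.8% of all genes tested that were higher and the 41.1% lower. Of 15 H2A genes tested 11 were higher and 3 lower, and the replication-linked H2A sum went from 11.2 ± 4.62 CPM with none to 103 ± 47.7 with both sets. Of 5 H1 genes 4 were higher and Hist1h1c was lower, and the replication-linked H1 sum went from 15.7 ± 6.23 to 81.2 ± 41.7 CPM. Of 9 H2B genes 4 were lower, all of them on the polyadenylated list, and 2 were higher, Hist1h2bj and Hist2h2bb.1. The replication-linked H2B sum was 4.50 ± 1.44 CPM with none and 6.62 ± 1.41 with both sets. Of 6 H3 genes 2 were higher (Hist1h3c and Hist1h3i) and 1 lower, and the H3 sum was 17.9 ± 5.13 CPM with none and 15.9 ± 1.77 with both sets. Of 8 H4 genes 2 were higher (Hist1h4b and Hist1h4d) and 5 lower, and the replication-linked H4 sum was 70.7 ± 19.7 CPM with none and 45.4 ± 2.94 with both sets. Counted per cell, the replication-linked H2B, H3 and H4 sums were 0.0426, 0.171 and 0.677 UMIs with none. In the deeper cells of both sets they were 0.154, 0.374 and 1.06, so the lower H4 value is one of share, not of UMIs per cell. These sums have no test.

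Cells that met 1 rule only showed less of this. In S only, 2 members were higher and 12 lower than in cells with none, where 30% of the genes tested were higher and 30.9% lower. The 2 were Hist1h2ap, by 1.25 ± 0.31 (edgeR adjusted p = 0.00287), and Hist1h1b, by 1.48 ± 0.36 (edgeR adjusted p = 0.00246). Without run 3 the difference of Hist1h2ap was 0.71 (edgeR adjusted p = 0.223), and with no block for the run neither gene passed. The lower ones were the 7 polyadenylated genes and Hist1h4i, Hist1h4d, Hist2h4, Hist2h3c1 and Hist2h3c2. In G2/M only, 10 members were higher and 9 lower, where 25.4% of the genes tested were higher and 26.2% lower. Hist1h2ap was higher by 3.69 ± 0.22, Hist1h1b by 3.53 ± 0.26 and Hist1h1e by 0.98 ± 0.16 on the log2 scale. By the rule as written, with cells of both sets in each class, 29 members were higher and 15 lower in S cells (42% and 43% of the 14823 genes tested), and 31 were higher and 15 lower in G2/M cells (41.7% and 43.4%). In those wider classes Hist1h2ap was higher by 4.82 and 4.90 and Hist1h2bc lower by -2.63 and -2.69 on the log2 scale, so the 2 classes hardly differ when 4655 cells are common to both.

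Between S only and G2/M only, 0 members were higher in S and 9 were lower, where 8.18% of the genes tested were higher and 6.51% lower. The 9 were Hist1h2ap (-2.44 ± 0.27, edgeR adjusted p = 2.7e-05), Hist1h1b (-2.05 ± 0.32), Hist1h2ae (-2.14 ± 0.36), Hist1h4d (-1.94 ± 0.42), Hist1h1e (-1.28 ± 0.21), Hist1h4i (-1.18 ± 0.22), Hist1h1c (-1.10 ± 0.14), Hist3h2a (-0.66 ± 0.13) and Hist3h2ba (-0.61 ± 0.17). Of the 9, 2 were still lower after thinning. When every cell was thinned to 3500 UMIs before the classes were set, 1032 cells were S only and 2504 G2/M only, and the difference was 0.02 for Hist1h2ap, 0.01 for Hist1h1b, -0.17 for Hist1h1e, -0.43 for Hist1h1c and -0.05 for Hist3h2ba, none of which passed. Hist1h4i (-0.84, edgeR adjusted p = 0.00803) and Hist3h2a (-0.57, edgeR adjusted p = 0.00643) were the 2 still lower in S only. Thinning also moved cells between classes, and cells of both sets went from 4655 to 1067. Cells with at least 2 S UMIs and 0 G2/M UMIs had median totals before thinning of 17435.5 to 20736 UMIs when classed on thinned counts. Classed on all UMIs, these medians were 13976 to 14304. The thinned contrast is therefore not one of the same cells, and what else differs between the thinned and the full classes was not tested. In those thinned classes Hist1h2ap was higher than in cells with none by 3.88 in S only and by 3.86 in G2/M only. Thinning left the direction of the polyadenylated genes against cells with none in place, with Hist1h2bc at -2.43 in S only, -3.12 in G2/M only and -3.36 in cells of both sets.

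Among the cells with at least 2 S UMIs, the replication-linked transcripts followed the number of G2/M UMIs. Their sum was 57.4 ± 14.5 CPM (SD, n = 3) in the 542 cells with 0 G2/M UMIs, 71.7 ± 12.6 with 1, 132 ± 31.1 with 2 to 3, 274 ± 62.8 with 4 to 9, 389 ± 78.4 in the 1182 cells with 10 to 19 and 199 ± 23.2 in the 1951 cells with 20 or more. It was highest in the bin of 10 to 19 and lower past it. Counted per cell it was also highest there, with 8.14 UMIs against 5.76 in the deeper cells past it. Hist1h2ap rose from 1.07 ± 0.907 to 88.9 ± 89.3 CPM over the same bins and stood at 29.2 ± 21.6 in the last, and Hist1h1b from 2.94 ± 1.83 to 56.2 ± 27.3 and 28.2 ± 18.7. Hist1h2bc instead fell at every step, from 244 ± 58.8 to 57.3 ± 3.11 CPM. In cells thinned to 3500 UMIs, the replication-linked sum was 148 ± 41.9, 269 ± 54.5, 304 ± 36.2 and 208 ± 25.2 CPM at 0, 1, 2 to 3 and 4 or more G2/M UMIs, again highest before the last bin. These bins were chosen after seeing the data and have no test.

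**Figure D3:**
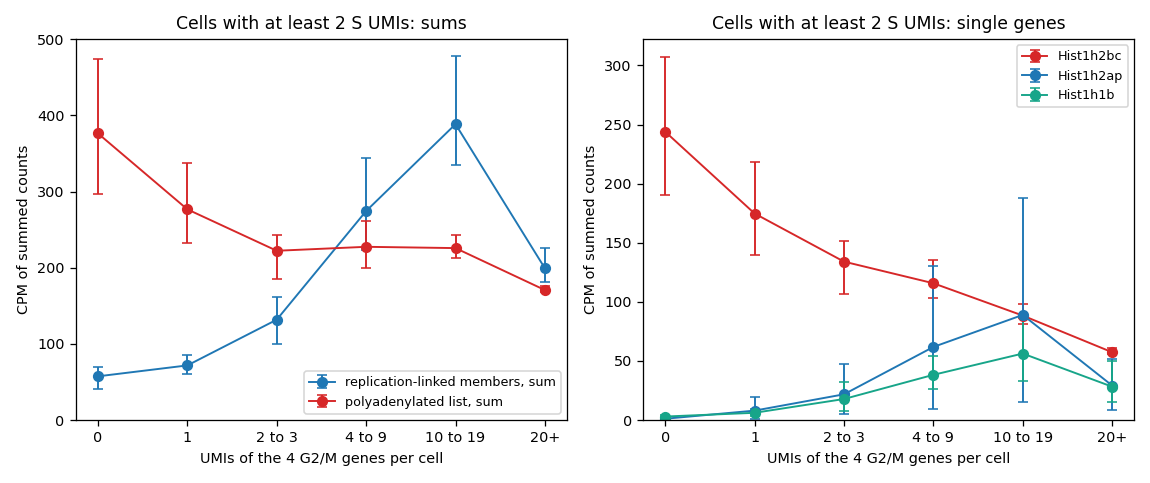
CPM in cells with at least 2 S UMIs, in bins of the UMIs of the 4 G2/M genes; points are means of the 3 runs and bars run from the lowest to the highest run. The replication-linked sum rises to 389 CPM at 10 to 19 UMIs and stands at 199 in the last bin, while Hist1h2bc falls from 244 to 57.3. The sum of the polyadenylated list is 222 at 2 to 3 UMIs and 226 at 10 to 19.

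Some replication-linked members differed between runs by more than most genes did, and others did not. In cells of both sets the highest run of Hist1h2ap, run 3, was 9.95 times the lowest, run 2 (95% exact binomial interval 9.0 to 11.0, counting error only). Hist1h2al was 3.52 times higher in run 1 than in run 2 (3.23 to 3.84). Hist1h1e was 2.79 times (2.57 to 3.04) and Hist1h1b 2.71 times (2.48 to 2.96) higher in run 2 than in run 1, and Hist1h2ae was 2.68 times higher in run 3 than in run 1. The median of this ratio over the 9507 genes of at least 5 CPM was 1.14, and 1.4% of them reached 3. Hist1h4i, at 1.15 (1.07 to 1.25), and Hist2h3c1, at 1.21 (0.985 to 1.48), were near that median. In cells with none, Hist1h1e was 2.58 times higher in run 2 than in run 1 (2.26 to 2.96) and Hist1h4i 1.91 times higher in run 3 than in run 1, where the median over genes was 1.19 and 1.31% reached 3. Among the polyadenylated genes with at least 5 CPM, the ratio in cells of both sets was 1.12 for Hist1h2bc and for Hist3h2ba, 1.09 for Hist3h2a, 1.37 for Hist1h1c and 1.34 for Hist2h2be. In cells with none it was 1.49, 1.35, 1.16, 1.30 and 1.10 for the same genes, 1.74 for Hist1h2be and 1.66 for Hist4h4. So the run with the most H2A transcripts was not the run with the most H1 transcripts: run 2 had the lowest replication-linked H2A sum (50.3 CPM, against 114 and 144 in runs 1 and 3) and the highest H1 sum (128, against 48.4 and 67.0). The sums over all replication-linked members were close, at 226, 247 and 283 CPM. Within a run, cells could be parted by sex-linked transcripts: in run 1 Hist1h2ap was 42.0 CPM in cells of both sets with Xist and no Y-linked UMI and 32.1 in those with Y-linked UMIs and no Xist, and in run 3 these were 111 and 93.8. The labels do not tie the runs to animals, strains or days, so what else differs between runs was not tested.

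**Figure D4:**
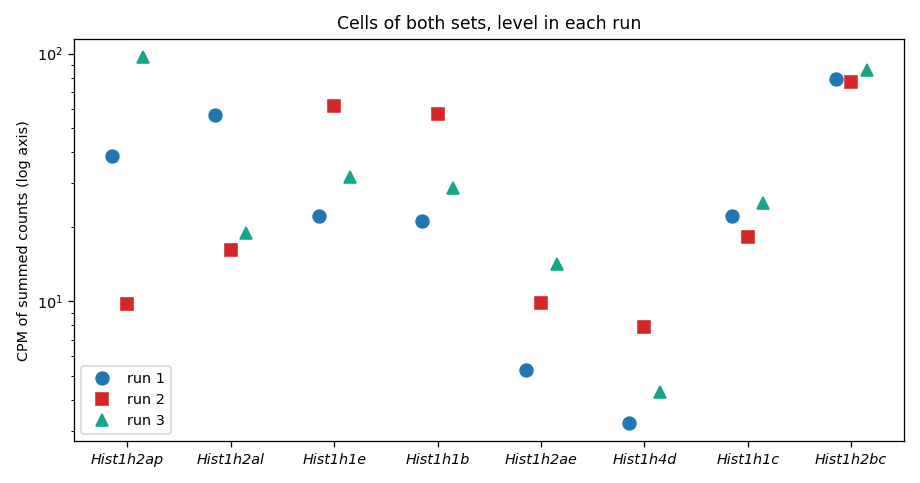
CPM of 8 members in cells of both sets in each run (log axis). Hist1h2ap is at 9.73 in run 2 and 96.7 in run 3 and Hist1h1b and Hist1h1e are highest in run 2, while Hist1h2bc lies between 76.6 and 86.1 in all runs.

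Short promoter motifs were more frequent among the members than among all genes. Of the members, 58 had an entry among the RefSeq promoters (GRCm38.p6, 300 bases around the start) of 27025 genes, and Hist1h2bc and Hist1h2ap had none. CCAAT, on either strand, was in 84.5% of the members' windows and in 41.1% of all genes' windows. TATAAA was in 56.9% and 15.7%, and the octamer ATTTGCAT in 20.7% and 1.97%. CCAAT was in every H1, H2A, H2B and H3 window and in 3 of the 12 H4 windows, and the octamer was found in 6 of 16 H2A and 6 of 14 H2B windows and in no H1, H3 or H4 window. The window of Hist4h4 held none of the 3 motifs, and that of Hist1h4i held TATAAA alone. Shown are the 250 bases before the start of Hist1h1b, which rose (chr13:21780626-21780875, minus strand), and of Hist3h2ba, which fell (chr11:58948661-58948910, plus strand). Capitals mark CCAAT or TATAAA on either strand, and both genes hold both.

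Hist1h1b: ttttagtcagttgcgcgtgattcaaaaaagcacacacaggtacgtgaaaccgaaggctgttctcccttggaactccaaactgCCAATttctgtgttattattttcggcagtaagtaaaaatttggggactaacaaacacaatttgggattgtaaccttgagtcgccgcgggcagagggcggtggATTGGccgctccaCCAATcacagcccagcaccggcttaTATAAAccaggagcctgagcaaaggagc

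Hist3h2ba: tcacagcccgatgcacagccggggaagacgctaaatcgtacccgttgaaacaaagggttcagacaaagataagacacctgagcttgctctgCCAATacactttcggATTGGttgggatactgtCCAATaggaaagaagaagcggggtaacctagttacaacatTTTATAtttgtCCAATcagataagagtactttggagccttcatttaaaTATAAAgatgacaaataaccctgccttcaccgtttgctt

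Most genes of a list for histone message processing were higher in the cycle classes than in cells with none. The list also holds the cell cycle genes Cdk2, Ccne1 and Ccne2, and Mxd3 and Mina. Of 22 genes of histone message processing, 16 were higher and 0 lower in S only, where 30% of all genes tested were higher and 30.9% lower. In G2/M only 14 were higher and 1 lower (25.4% and 26.2% of all genes), and in cells of both sets 19 were higher and 0 lower (38.8% and 41.1%), with a median log2 difference of 1.21 in the last. Slbp, which binds the stem-loop, stood at a mean of 50.8 CPM in cells with none, 150.5 in S only, 109 in G2/M only and 232 in cells of both sets. It was higher in S only than in G2/M only, by 0.55 ± 0.10 (edgeR adjusted p = 0.00171), opposite in direction to the members that differed there. Npat, the coactivator of histone gene transcription, was higher by 1.33 ± 0.09 in cells of both sets, and Cpsf2, a subunit of the cleavage complex, by 1.46 ± 0.08.

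Of 25 chaperone and assembly genes, 21 were higher and 2 lower in cells of both sets, with a median of 1.39. Nap1l1, a chaperone of H2A and H2B, was higher by 1.87 ± 0.07 and Npm1, the nucleolar chaperone nucleophosmin, by 1.80 ± 0.08. Of 18 genes listed for poly(A) tail making and the nuclear exosome, 13 were higher and 3 lower, with a median of 0.77. The list also holds Zcchc6 and Zcchc11, which add uridines, and exosome cofactors such as Rbm7, Zcchc8 and Skiv2l2. Papola, a poly(A) polymerase, was higher by 0.78 ± 0.06 and Exosc8, an exosome subunit, by 1.93 ± 0.09 in cells of both sets. These counts are against the 38.8% higher and 41.1% lower given above.

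The replication-independent histone variant genes outside the clusters were taken as a list of their own. Of 11 tested, 8 were higher and 1 lower in cells of both sets, where 38.8% of all genes tested were higher and 41.1% lower. In S only 5 were higher and 5 lower, where these shares were 30% and 30.9%. H2afz, a variant H2A gene, went from a mean of 371 CPM with none to 3860 with both sets (log2 3.39 ± 0.09), and H2afx, the variant H2A of DNA damage signalling, from 29.4 to 475 (4.03 ± 0.10). H3f3a, which makes a replication-independent H3, was lower by -0.29 ± 0.06, and H3f3b, which makes the same protein, differed by 0.09 ± 0.08 (edgeR adjusted p = 0.315). H1f0, the linker variant known from differentiated cells, was lower in S only (-0.98 ± 0.13) and higher in cells of both sets (0.58 ± 0.11).

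Igfbp2, a secreted binding protein of insulin-like growth factors, is known from earlier results of these data to divide the glia. Among cells with none of the 8 cycle genes, 769 cells with at least 5 Igfbp2 UMIs were compared with 13464 cells with at most 1. Of 32 members tested, 1 was higher and 10 were lower in the Igfbp2-high cells, where 27.2% of the 13624 genes tested were higher and 26.3% lower. Hist1h2bc stood at 348, 393 and 435 CPM in Igfbp2-high cells and at 524, 588 and 776 in Igfbp2-low cells, with no overlap (log2 -0.60 ± 0.07, edgeR adjusted p = 5.81e-06). Hist3h2ba stood at 51.5 to 59.2 and 156 to 209 CPM (-1.56 ± 0.09), and Hist1h4i at 19.1 to 22.1 and 39.3 to 75.0 (-1.32 ± 0.13). In UMIs per cell Hist1h2bc hardly differed (log2 -0.01 ± 0.20, SD over runs), since the Igfbp2-high cells had more UMIs, while Hist3h2ba was lower (-0.98 ± 0.29).

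Hist1h1c was the 1 higher member, at 44.9, 48.4 and 52.1 CPM against 35.1, 33.4 and 44.6 (0.44 ± 0.08, edgeR adjusted p = 0.000542). The Igfbp2-high class also held astrocyte transcripts: Pax2, which marks retinal astrocytes, was at 20.9 to 38.0 CPM in it and at 0.0273 to 0.164 in Igfbp2-low cells, S100b at 228 to 302 and 8.66 to 10.9, and the 3 pericyte markers summed to 340 to 652 and 20.5 to 42.4. The 5 astrocyte markers together summed to 1903 to 2032 and 1539 to 2221 CPM. Leaving out cells with Pax2 or at least 3 microglial UMIs removed 20.1% to 22.5% of the Igfbp2-high cells and 0.67% to 1.79% of the others. Then Hist1h1c was lower, by -0.40 (edgeR adjusted p = 0.00528), and 0 members were higher and 12 lower, where 26.7% of the 13440 genes tested were higher and 26.4% lower. Hist1h2bc was then at -0.71, Hist3h2ba at -1.57 and Hist1h4i at -1.54. The 12 Müller glia markers summed to 16630 to 19670 CPM in Igfbp2-high cells and 27860 to 31990 in Igfbp2-low cells, and the 8 rod markers to 578 to 890.2 and 1475 to 1842. The part of the pericyte, Müller glia and rod transcripts in these values was not tested.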

How the data were processed

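Polyadenylated RNA of tdTomato-sorted retinal cells was sequenced in 3 10X Chromium libraries. Per the submitters' processing notes, the authors used Cell Ranger (version not given) on mm10 and Seurat 2.3.4. The deposited table holds raw UMI counts per gene and cell. A second deposited table holds natural log values, which equalled ln(1 + 10000 × count / total) to within 5.00e-07 for 13511 cells (54.7%), and these were used in 1 alternative. A filter on genes detected (500 or more) and on mitochondrial UMIs (20% or less) removed 23 cells, and the lowest total left was 3538 UMIs. No doublet caller was run and doublets were kept. Cells of both sets were the deepest, and the part of doublets in their values was not tested.

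Counts were summed per run and class. The edgeR 4.0.16 quasi-likelihood test (TMM scaling, filterByExpr, run as a block, Benjamini-Hochberg adjustment over all genes tested, threshold 0.05) was fitted to all 4 classes in R 4.3.3, with limma 3.58.1. It was tested on simulated counts. DESeq2 1.42.0 was an alternative. Tables and plots used Python 3.11.15 with numpy 2.4.6, scipy 1.17.1, pandas 2.3.3 and matplotlib 3.10.9. Classes of a run come from the same library and are paired by construction: their deviations correlated at 0.437 to 0.833 over 18 pairs. Alternatives were other scalings, no count filter, no block, each run left out, thinning to 3500 UMIs, the cells of the log table, other class limits, overlapping classes, and removal of cells with Pax2 or microglial UMIs. Members described run by run were the 12 highest in any of the classes none, S only or G2/M only plus the polyadenylated list, 13 in all. The members and lists were chosen with earlier results of these data known. Other members named in counts were named after their values were seen.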

Additional observations from a re-analysis of the deposited data

Results flagged for a closer look

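Hist1h4d, an H4 gene with an extended annotated end, differed in opposite directions between the classes that met 1 rule only. It was lower in S only than in cells with none (log2 -1.20 ± 0.36, edgeR adjusted p = 0.0097) and higher in G2/M only (0.74 ± 0.28, edgeR adjusted p = 0.0385). The test of S only against G2/M only gave -1.94 ± 0.42 (edgeR adjusted p = 0.00627). Its level was 1.75, 4.37 and 2.66 CPM in runs 1, 2 and 3 in cells with none, 0.789, 2.50 and 0.499 in S only, and 0.891, 9.15 and 5.14 in G2/M only. In run 1 both classes were below cells with none, so the direction in G2/M only is carried by runs 2 and 3. S only held 3998898 to 5068658 UMIs per run over all genes and G2/M only 2244334 to 3060444. The levels of Hist1h4d in S only, and in run 1 of G2/M only, therefore rest on very few UMIs.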

How the results depend on the processing

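The counts of members called depend most on how the classes were set. They are given here without the shares over all genes in each setting, so they describe the members only. In S only, 2 members were higher; this was 0 with no replicate block, 6 after thinning to 3500 UMIs, 4 with a class limit of 3 UMIs, 29 with overlapping classes, and 1 to 2 with each run left out. In G2/M only, 10 were higher; this was 6 with no replicate block, 6 after thinning, 31 with overlapping classes and 6 to 9 with each run left out, and the 9 lower became 15 with overlapping classes. Between S only and G2/M only the 9 lower members became 4 with no replicate block, 2 after thinning and 0 with overlapping classes, and the 0 higher became 1 after thinning and 1 in the cells of the log table. In cells of both sets the 21 higher became 7 after thinning, where 1067 cells met both rules. In Igfbp2-high cells the 1 higher became 2 after thinning, 0 in the cells of the log table and 0 without cells with Pax2 or microglial UMIs. The cause was not tested, except that overlapping classes share most of their cells and that no block leaves the differences between runs in the error.

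Directions turned in 9 values that passed the test in the main setting or in the alternative. Hist1h1e in S only, -0.30 and not called, was 1.22 after thinning and 1.63 with overlapping classes. Between S only and G2/M only, thinning gave 0.68 for Hist1h2bc, 0.02 for Hist1h2ap and 0.01 for Hist1h1b. In Igfbp2-high cells, thinning gave 1.72 for Hist1h2ap and 1.50 for Hist1h1b, and Hist1h1c was -0.59 in the cells of the log table and -0.40 without cells with Pax2 or microglial UMIs. Of calls that ended with 1 run left out, Hist1h4i in G2/M only was -0.49 without run 2 (edgeR adjusted p = 0.079) and -0.29 without run 3 (0.263). Between S only and G2/M only, Hist3h2a (-0.53, 0.0923) and Hist3h2ba (-0.53, 0.203) did not pass without run 1, nor Hist3h2ba without run 3 (-0.64, 0.0712). Hist1h1e in Igfbp2-high cells did not pass without run 2 (-0.52, 0.0592). Of the other values recomputed, 760 passed in the same direction in both settings or passed in neither, 31 no longer passed and 17 newly passed. Values that passed in neither setting were not checked for their direction.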

Other observations

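Cells with 1 UMI of a gene set but not 2, 3616 in all, stood between the classes in the polyadenylated list (874 ± 148 CPM, SD, n = 3) and at 104 ± 25.0 CPM in the replication-linked members, against 983 and 120.0 in cells with none. The 78 cells with at least 10 microglial UMIs, which the sort did not aim at, held Hist1h2bc at 208 ± 19.2 CPM and Hist1h1c at 88.9 ± 36.6. These were 609 ± 128 and 38.2 ± 5.51 in cells with none of the cycle genes. Runs 1, 2 and 3 held 44, 23 and 11 of the 78 cells, with Hist1h1c at 114, 46.8 and 106 CPM. In run 3 the values rest on 19 UMIs of Hist1h2bc and 9 of Hist1h1c. The 78 cells were taken whatever their cycle genes, unlike the cells they are set against. Of the testis list, Hist1h2aa had 94 UMIs in all and Hist1h1t 3, and the list stood at 0.225 ± 0.109 CPM in cells with none and 0.460 ± 0.304 in cells of both sets, with no test.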
